A study of Mus musculus with 2 samples.

Results

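The 6 genes described here, Neurog1, Neurog2, Neurod1, Neurod2, Neurod4 and Neurod6, encode proneural and neuronal differentiation factors of the basic helix-loop-helix (bHLH) family. They were chosen by symbol and are 6 of the 32285 genes counted in the 2 mouse libraries. Slide-tags tags the nuclei of a frozen tissue section with spatial barcodes before single-nucleus RNA sequencing, and the positions themselves were not analysed here. The adult hippocampus library came from a coronal section of a male C57BL/6J mouse at 56 days of age. The E14 brain library came from a sagittal section of a C57BL/6J embryo at embryonic day 14, snap-frozen whole, with the sex not given. The labels name no genetic change or treatment in either library. With 1 library per tissue there were no replicates and no test was possible. Nuclei are not replicates of each other, so the intervals given throughout are 95% intervals that cover counting error only.

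In the developing cortex, radial glia divide to give intermediate progenitors that express the T-box gene Eomes, and these give excitatory neurons. Neurog1 and Neurog2 start neurogenesis in cortical progenitors. Neurod1 acts in late progenitors and new neurons, Neurod2 and Neurod6 in differentiating and mature excitatory neurons, and Neurod4 in neurogenesis of retina, midbrain and hindbrain. All of these factors bind E-box sequences as dimers with E-proteins such as Tcf3, Tcf4 and Tcf12. Hes proteins repress proneural genes, while Id proteins sequester the E-proteins.

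The 6 genes are short and lie on 6 chromosomes. In GENCODE vM21 on GRCm38, Neurog2 covers chr3:127633135-127635631 on the plus strand, and the other members lie on minus strands. Neurog1 covers chr13:56250478-56252163, Neurod1 chr2:79452521-79456751, Neurod2 chr11:98325415-98329648, Neurod4 chr10:130268152-130280240 and Neurod6 chr6:55677822-55681263. Neurog1 has 1 exon and each other member has 2, and the coding sequence of every member lies in 1 exon. Neurod1 overlaps the gene Cerkl on the same strand and the lincRNA Gm26755 on the opposite strand. Reads in that overlap could have been counted for another gene or dropped, so Neurod1 counts are uncertain.

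The levels of Neurod2 and Neurod6 followed each other most closely over the E14 clusters, while Neurog2 was highest in a different cluster. The promoters of Neurod2, Neurod6 and Neurog2 are therefore shown. Each is the RefSeq sequence from 250 bases before to 50 bases after the gene's start on GRCm38.p6, 5′ to 3′ on the gene's own strand, with matches to the E-box CANNTG in capitals.
Neurod2, chr11:98329596-98329895, minus strand: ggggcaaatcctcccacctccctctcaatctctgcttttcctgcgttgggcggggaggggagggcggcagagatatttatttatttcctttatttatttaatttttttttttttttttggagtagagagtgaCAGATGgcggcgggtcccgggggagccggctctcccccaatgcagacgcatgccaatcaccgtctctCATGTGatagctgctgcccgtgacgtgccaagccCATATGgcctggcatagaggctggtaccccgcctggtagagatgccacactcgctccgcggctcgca
Neurod6, chr6:55681214-55681513, minus strand: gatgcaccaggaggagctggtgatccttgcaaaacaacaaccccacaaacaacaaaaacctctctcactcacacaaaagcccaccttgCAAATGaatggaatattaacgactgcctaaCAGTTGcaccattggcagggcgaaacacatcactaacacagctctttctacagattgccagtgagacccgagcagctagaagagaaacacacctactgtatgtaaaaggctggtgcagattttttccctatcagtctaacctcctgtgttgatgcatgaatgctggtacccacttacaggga
Neurog2, chr3:127632886-127633185, plus strand: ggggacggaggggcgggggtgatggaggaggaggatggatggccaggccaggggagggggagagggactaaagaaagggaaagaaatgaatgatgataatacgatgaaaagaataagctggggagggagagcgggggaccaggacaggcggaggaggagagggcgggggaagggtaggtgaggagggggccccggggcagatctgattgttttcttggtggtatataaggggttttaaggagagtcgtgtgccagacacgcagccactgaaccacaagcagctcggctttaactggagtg
CANNTG reads the same on both strands as a pattern, so 1 strand was searched. Neurod2 held 3 matches, CAGATG at position -118 from the start, CATGTG at -51 and CATATG at -17. Neurod6 held 2, CAAATG at -162 and CAGTTG at -132, and Neurog2 held 0. Of the remaining members, Neurod1 held 1 match, CATATG at -242, and Neurog1 held 1, CACTTG. Neurod4 had 2 entries, of which 1 held CAGCTG and the other no match. Among all 32851 promoters of the same length, 72.3% held at least 1 CANNTG, with a mean of 1.39 matches. CAGATG or its reverse complement CATCTG was in 17.2% of them, CATATG in 3.92% and CAGCTG in 16.3%. These matches are a description of the windows, and the libraries hold no measure of binding.

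After filtering, the E14 library held 9036 nuclei with 58923882 UMIs and the adult library 1609 nuclei with 15346746. A UMI marks 1 captured molecule. A level is given in CPM, the gene's summed UMIs in a class per 1000000 UMIs of that class, and is not corrected for gene length unless said. Free RNA was present, as the choroid plexus gene Ttr had a UMI in 74.7% to 86.4% of the nuclei of each other named E14 class and of the 3 lineage classes described next. Forebrain GABAergic neuron-like nuclei, which derive from ventral progenitors that rely on other proneural genes, served as the background class at E14. Their 587 nuclei had a median of 4661 UMIs and levels of 0 for Neurog1 and Neurod4, 2.32 for Neurog2, 1.74 for Neurod1, 2.03 for Neurod2 and 4.92 CPM for Neurod6. Classes were named from marker lists, with the 6 members kept out of the clustering, and each name means only that the nuclei resemble that cell type.

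Over the whole E14 library, Neurod6 had 2145 UMIs, Neurod2 785, Neurog2 700 and Neurod1 428, whereas Neurod4 had 33 and Neurog1 31. The 2 rarest members could therefore be described only coarsely. Neurog2 and Neurod6 separated by cluster. The dorsal radial glia-like cluster held 5.16% of nuclei and 25.4% of Neurog2 UMIs, 178 of 700. It also held 41.9% of Neurog1 UMIs, 13 of 31. The cortical excitatory neuron-like cluster held 6.88% of nuclei, with 54.6% of Neurod6, 58.2% of Neurod2 and 35.7% of Neurod1 UMIs. Of the 22 clusters, Neurog2 reached 10 CPM in 8, Neurod6 in 10, Neurod2 in 4 and Neurod1 in 2. These counts include unnamed clusters. The second-highest Neurod6 level, 41.9 CPM, lay in an unnamed cluster with 47.2% likely doublets. The second-highest Neurod2 level, 19.5 CPM, lay in an unnamed cluster with a median of 736.5 UMIs, led by Hbb-bt, Hbb-bs and Hba-a1.

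**Figure D1:**
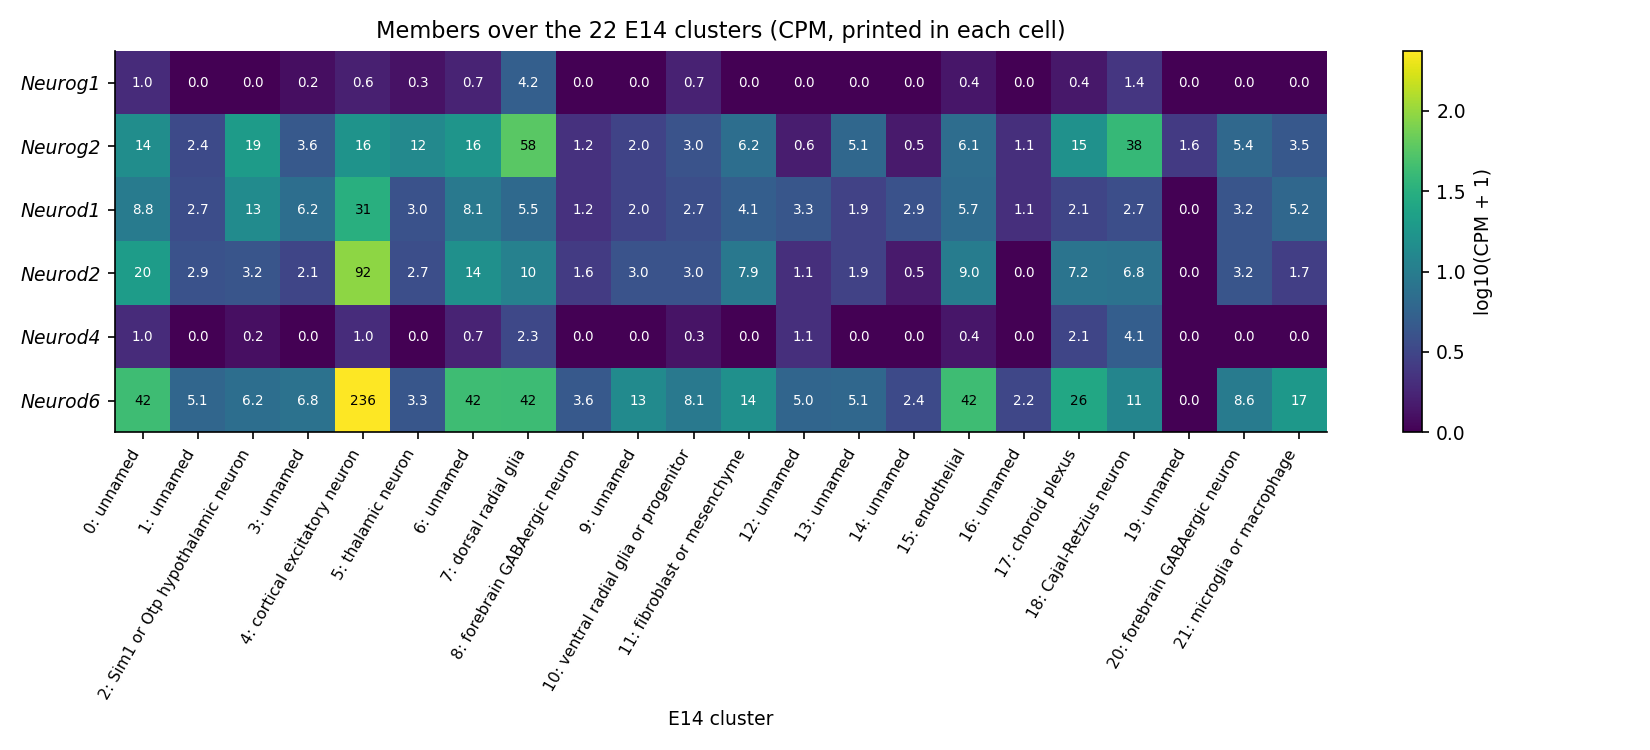
Heat map of the 6 members (rows) over the 22 E14 clusters (columns, with the class each resembles). Colour shows log10 of CPM plus 1 and the number in each cell is the level in CPM, highest for Neurod6 in the cortical excitatory neuron-like cluster at 236 and for Neurog2 in the dorsal radial glia-like cluster at 57.8.

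No cluster of the whole library resembled Eomes progenitors. The 1088 nuclei of the dorsal radial glia-like and cortical excitatory neuron-like clusters were therefore clustered again, a step chosen after the first clusters had been seen. It gave 460 dorsal radial glia-like, 116 Eomes progenitor-like and 190 cortical excitatory neuron-like nuclei, with medians of 3852, 3048 and 3835 UMIs. No Eomes progenitor-like cluster was named when likely doublets were removed before clustering or at a second resolution of 0.5, so the 3-class results rest on this clustering. The other 322 nuclei lay in 3 unnamed clusters. The summed level of the 8 Eomes progenitor markers was 273, 789 and 116 CPM in the 3 classes. The summed level of the 8 dorsal radial glia markers was 1046, 521 and 160. The summed level of the 8 cortical excitatory neuron markers was 5876, 11413 and 13656, so the Eomes progenitor-like nuclei carried markers of both neighbours, and no marker was at 0 in any of the 3 classes. The part of this overlap in the member levels was not tested. Of the 8 cell cycle markers, 0 passed the naming limits in the Eomes progenitor-like cluster, while from 1 to 8 passed in the radial glia-like clusters. The Eomes progenitor-like cluster was led by Adamtsl3, A930024E05Rik, Unc5d, Atp8b5 and Plxna4os2. None of its 10 leading genes was one of the 8 Eomes progenitor markers, of which 6 passed the naming limits. The share of progenitors in the Eomes progenitor-like class was not tested.

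Neurog2, the main proneural gene of cortical progenitors, was high in both progenitor-like classes and low in neuron-like nuclei. Its level was 56.7 (48.6 to 65.7) CPM from 175 UMIs in dorsal radial glia-like nuclei and 64.0 (42.5 to 92.5) from 28 UMIs in Eomes progenitor-like nuclei. In cortical excitatory neuron-like nuclei it was 8.49 (3.41 to 17.5) from 7 UMIs. The step from radial glia to Eomes progenitors was a ratio of 1.13 (0.729 to 1.69), which counting error could not tell from 1 and which lay between 0.658 and 1.92 under other processing. The neuron level was 7.54-fold (3.22 to 20.4) lower than the Eomes progenitor level. A Neurog2 UMI was found in 20.7% (17.0 to 24.6) of radial glia-like, 19.0% (12.3 to 27.3) of Eomes progenitor-like and 3.68% (1.49 to 7.44) of neuron-like nuclei, beside 1.19% of GABAergic neuron-like nuclei at their median of 4661 UMIs. With each nucleus thinned to 1000 UMIs these shares were 4.33%, 5.36%, 1.68% and 0.175%.

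Neurog1, the close relative of Neurog2, was found at low counts and only in the 2 progenitor-like classes of the 3. It had 13 UMIs in radial glia-like nuclei, 4.21 (2.24 to 7.20) CPM, each in a different nucleus. It had 2 UMIs in Eomes progenitor-like nuclei, 4.57 (0.554 to 16.5) CPM. None was found in the 190 neuron-like nuclei, where the floor of 3 counts stands for 3.64 CPM. The 3 classes were not told apart for Neurog1 at this depth, and the ratio of the first 2 was 1.09 (0.119 to 4.80).

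Neurod1, a gene of late progenitors and new neurons, was highest in the Eomes progenitor-like class. Its levels were 7.45 (4.72 to 11.2), 36.6 (20.9 to 59.4) and 14.6 (7.52 to 25.4) CPM in radial glia-like, Eomes progenitor-like and neuron-like nuclei, from 23, 16 and 12 UMIs. The first step was 4.91-fold (2.42 to 9.71) higher, and the second 2.51-fold (1.12 to 5.82) lower. The first ratio lay between 2.00 and 12.0 under other processing, and the second turned to 1.06 when the classes were set by marker gates within the reclustered nuclei. Neuron-like and radial glia-like nuclei were not told apart by counting error, with a ratio of 1.95 (0.886 to 4.09). A Neurod1 UMI was found in 3.48%, 12.9% and 5.79% of the nuclei, and in 1.02% of GABAergic neuron-like nuclei. Of the 23 UMIs in radial glia-like nuclei, 6 came from 1 nucleus, without which the level was 5.60.

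Neurod2 and Neurod6, factors of differentiating excitatory neurons, were lower in radial glia-like nuclei than in Eomes progenitor-like and neuron-like nuclei. Neurod2 was at 13.3 (9.53 to 18.0), 126 (94.7 to 164) and 132 (109 to 159) CPM in the 3 classes, from 41, 55 and 109 UMIs. The first step was 9.47-fold (6.20 to 14.6) higher and the second a ratio of 1.05 (0.754 to 1.48). Neurod6 was at 50.5 (42.9 to 59.1), 373 (318 to 434) and 349 (310.1 to 392), from 156, 163 and 288 UMIs. Its first step was 7.37-fold (5.88 to 9.24) higher and its second a ratio of 0.937 (0.771 to 1.14). For both genes the interval of the second ratio spanned 1, which does not show that the classes are equal. Under other processing the first ratio lay between 2.00 and 33.3 for Neurod2 and between 3.76 and 40.03 for Neurod6, and the second between 1.01 and 1.75 for Neurod2 and between 0.912 and 1.61 for Neurod6.

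The share of nuclei with a Neurod6 UMI was 12.0% in radial glia-like, 60.3% in Eomes progenitor-like and 63.7% in neuron-like nuclei, beside 2.21% in GABAergic neuron-like nuclei. A Neurod2 UMI was found in 4.57% of radial glia-like and 31.0% of Eomes progenitor-like nuclei and in 76 of the 190 neuron-like nuclei, beside 1.19% of GABAergic neuron-like nuclei. With nuclei thinned to 1000 UMIs, Neurod6 shares were 2.96%, 25.9% and 29.1%, beside 0.524%. Against GABAergic neuron-like nuclei, the neuron-like level was 65.2-fold (30.6 to 166) higher for Neurod2 and 71.0-fold (43.6 to 124) higher for Neurod6. Against the non-neural classes described below, which held more of both genes, it was 17.4-fold (12.7 to 24.2) and 13.4-fold (11.2 to 16.1) higher. For radial glia-like nuclei the level was 6.55-fold (2.91 to 17.3) above the GABAergic neuron-like one for Neurod2 and 10.3-fold (6.21 to 18.1) for Neurod6. Single nuclei weighed on the radial glia-like levels. A single nucleus held 33 of 156 Neurod6 UMIs, without which the level was 40.5. A single nucleus also held 11 of 41 Neurod2 UMIs, without which the level was 9.89.

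Neurod4, best known from the retina and hindbrain, was near the detection limit. It had 7 UMIs in radial glia-like nuclei, 2.27 (0.912 to 4.67) CPM, 1 in Eomes progenitor-like nuclei and 0 in neuron-like nuclei. No fold between these classes could be given at this depth. Divided by gene span, the level in CPM per kilobase in Eomes progenitor-like nuclei was 108 for Neurod6, 29.7 for Neurod2, 25.6 for Neurog2, 8.64 for Neurod1, 2.71 for Neurog1 and 0.189 for Neurod4. In neuron-like nuclei the level per kilobase was 101 for Neurod6 and 31.2 for Neurod2, while Neurod1 and Neurog2 were at 3.44 and 3.40. Each UMI marks 1 captured molecule, and whether UMI counts scale with gene span was not tested. No order of the genes is read from the levels per kilobase.

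**Figure D2:**
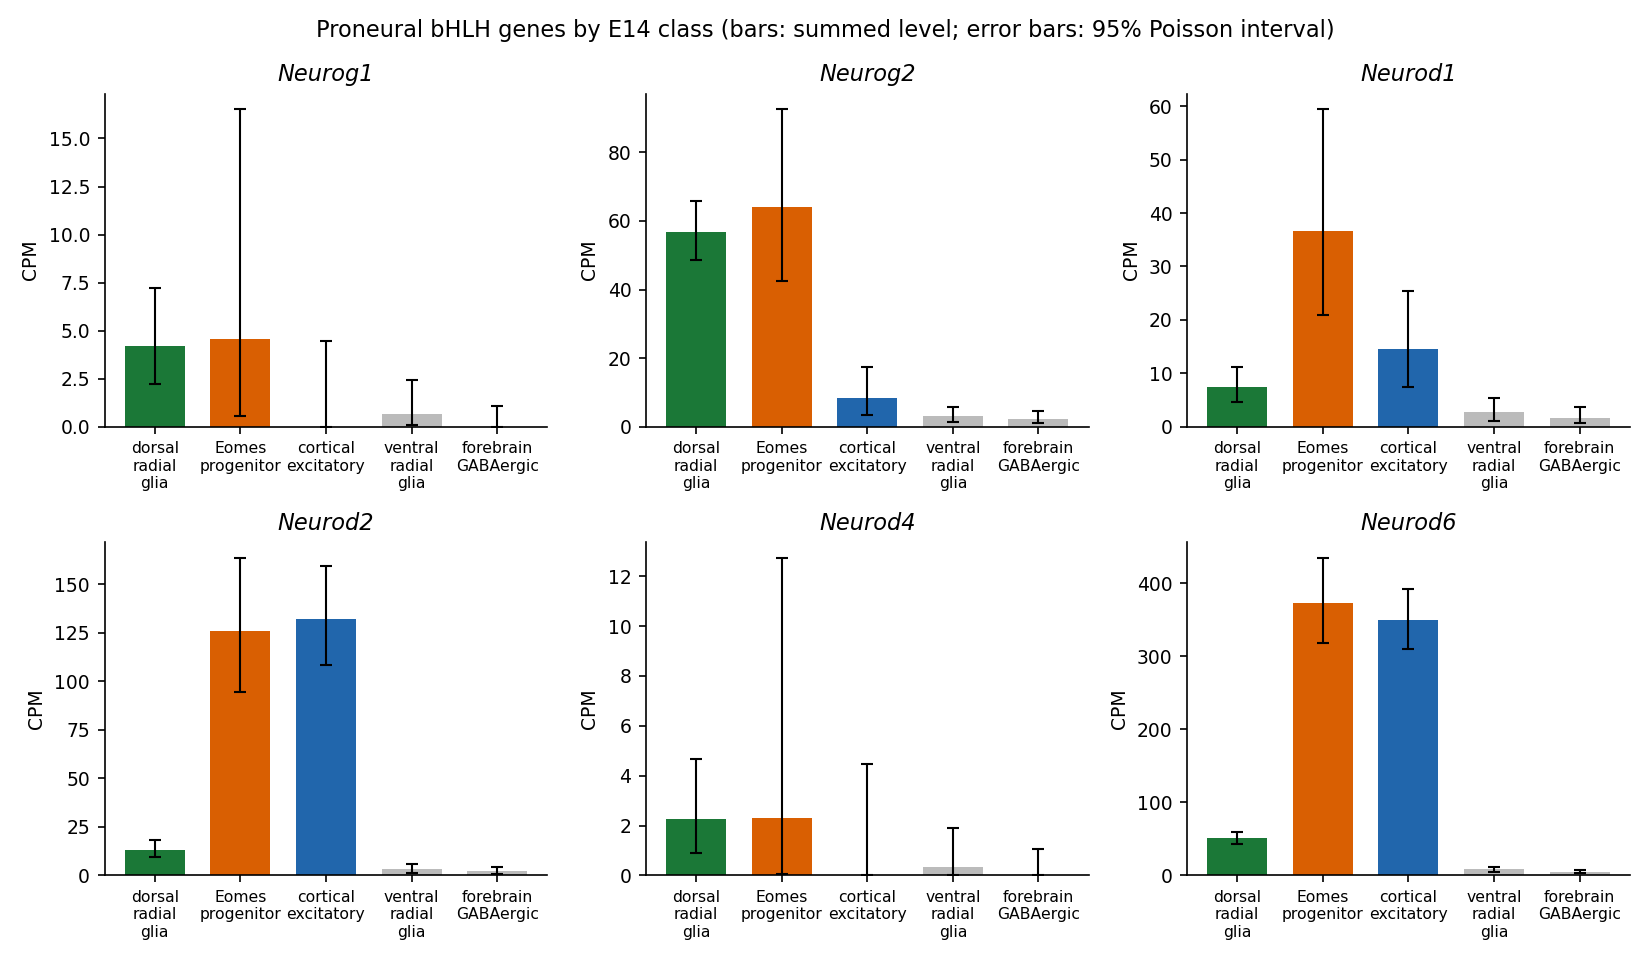
Bars give the level in CPM (vertical axis, one scale per panel) of each of the 6 genes in the 3 E14 lineage classes (green, orange, blue) and in ventral radial glia-like and forebrain GABAergic neuron-like nuclei (grey). Error bars are 95% Poisson intervals. Neurog2 is at 56.7 and 64.0 in the progenitor-like classes and 8.49 in neuron-like nuclei, while Neurod6 is at 50.5, 373 and 349.

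The classes were made of smaller clusters that differed in their members. Among the 4 radial glia-like clusters, Neurog2 was at 97.7 (70.7 to 132) CPM in cluster 2 with 137 nuclei, 56.5 in cluster 1, 53.7 in cluster 5 and 26.1 (14.3 to 43.8) in cluster 7. Cluster 7, with 63 nuclei, was led by Wnt8b, a gene of the cortical hem and medial cortex. Cluster 2 was 3.74-fold (2.01 to 7.41) above cluster 7, 1.73-fold (1.18 to 2.51) above cluster 1 and 1.82-fold (1.08 to 3.13) above cluster 5. Neurod6 was highest in cluster 1, at 69.1 CPM, or 50.9 without the nucleus that held 33 UMIs. Cluster 1 was led by mitotic genes, with 8 cell cycle markers, and 4.7% of its nuclei were among the likely doublets.

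The 2 neuron-like clusters differed in Neurod1 but little in Neurod2. Cluster 4, with 114 nuclei, had Neurod1 at 27.0 (13.5 to 48.4) CPM from 11 UMIs. Cluster 6, with 76 nuclei and the marker Fezf2 of deep-layer neurons, had 1 Neurod1 UMI, 2.40 (0.0606 to 13.3) CPM, a ratio of 11.3 (1.64 to 486). Neurod2 was at 140.0 and 125 in these clusters, a ratio of 1.12 (0.758 to 1.67). Neurod6 was at 405 and 295, a ratio of 1.38 (1.08 to 1.75).

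The highest Neurod1 level of any cluster of the lineage lay in an unnamed cluster. Cluster 9, with 55 nuclei, had 5 of the 8 Eomes progenitor markers above the limits used, but too few more than the next list to be named. Calb2 and Cxcr4 were among its leading genes. Neurod1 was at 91.6 (65.7 to 124) CPM there from 41 UMIs, or 76.1 without 1 nucleus that held 9 of them. This was 2.50-fold (1.38 to 4.78) above the Eomes progenitor-like class. Neurog2 was at 11.2 in this cluster, 0.175 (0.0526 to 0.458) times the Eomes progenitor-like level, and Neurod6 at 154, 0.414 (0.308 to 0.551) times that level. Eomes was at 154 CPM in this cluster and at 263 in the Eomes progenitor-like class. Cluster 8, with 56 nuclei led by genes such as Crym and Htr2c, had Neurod1 at 48.7 and Neurod6 at 319.8. Cluster 0, with 211 nuclei of which 40.3% were among the likely doublets, had Neurod6 at 172 and Neurog2 at 11.3.

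**Figure D3:**
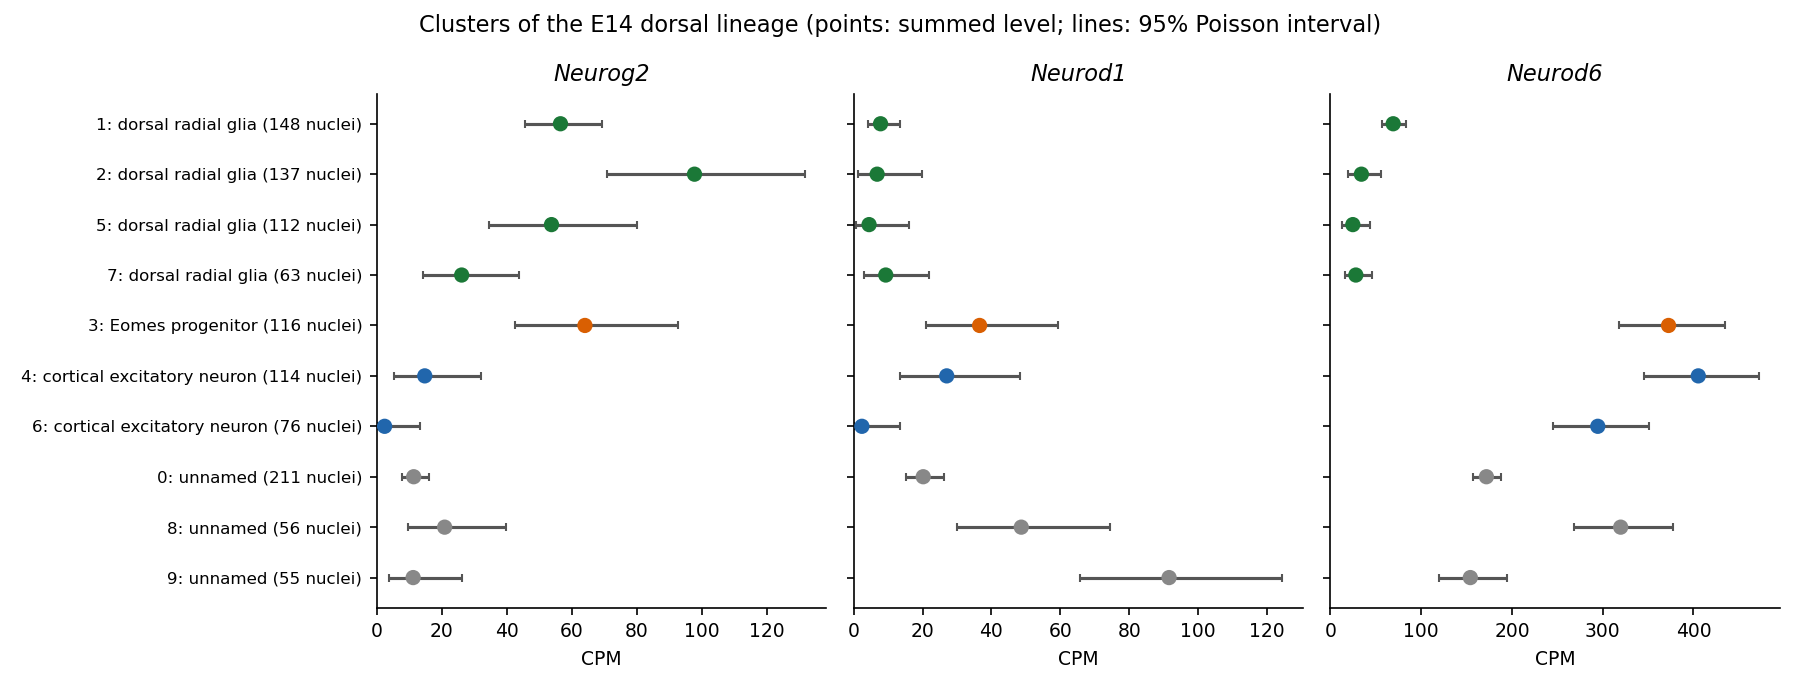
Points give the level in CPM (horizontal axis) of Neurog2, Neurod1 and Neurod6 in each of the 10 clusters of the second clustering (vertical axis, with the class each resembles and its number of nuclei), and lines are 95% Poisson intervals. Neurog2 is highest in radial glia-like cluster 2 at 97.7, Neurod1 in unnamed cluster 9 at 91.6 and Neurod6 in neuron-like cluster 4 at 405.

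Nuclei of the progenitor-like classes were then split by whether a nucleus held any UMI of 8 cell cycle genes. In radial glia-like nuclei Neurog2 was at 56.05 CPM in the 376 nuclei with such a UMI and at 65.2 in the 84 without, a ratio of 0.860 (0.498 to 1.61). In Eomes progenitor-like nuclei the ratio was 0.946 (0.420 to 2.19) for Neurog2, 0.916 (0.521 to 1.63) for Neurod2 and 1.02 (0.736 to 1.41) for Neurod6. None of these intervals left out 1. In radial glia-like nuclei Neurod6 was at 53.6 with a cycle UMI and 9.31 without, from 154 and 2 UMIs, a ratio of 5.76 (1.57 to 48.0). Depth moved with this split, since nuclei with a cycle UMI had a median of 4348 UMIs and the others 2208, and so did Eomes, at 81.8 and 23.3 CPM, a ratio of 3.52 (1.49 to 10.9). Their part in the Neurod6 ratio was not tested.

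Detection of 2 members in the same nucleus was compared at a single depth, since deeper nuclei hold more of every gene. Over the 3 lineage classes thinned to 2000 UMIs, 634 nuclei remained. Neurod6 was found in 45.3% (32.8 to 58.3) of the 64 nuclei with a Neurod2 UMI and in 20.4% (17.1 to 23.9) of the nuclei without one. At 1000 UMIs the same shares were 28.9% (16.4 to 44.3) and 11.8%, and at full depth 75.2% and 23.1%. These shares mix 3 classes that differ in both genes. Neurod2 was found in 1 of 51 nuclei with a Neurog2 UMI, 1.96% (0.0496 to 10.4), and in 10.8% (8.40 to 13.6) of the others, while at full depth the shares were 17.7% and 17.3%. Neurod6 did not separate by Neurog2, with 23.5% (12.8 to 37.5) against 22.8%. Neurod1 was found in 4 of 51 nuclei with Neurog2, 7.84% (2.18 to 18.9), and in 2.74% of the others.

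Neurog2 was more often found in nuclei with a UMI of Eomes, the marker of intermediate progenitors. At 2000 UMIs over the 3 classes, Neurog2 was found in 20.0% (11.1 to 31.8) of the 65 nuclei with an Eomes UMI and in 6.68% (4.77 to 9.05) of the others. These shares mix 3 classes that differ in both genes. Within radial glia-like nuclei at full depth, 46 of 97 nuclei with an Eomes UMI held Neurog2, 47.4% against 13.5%, and at 2000 UMIs 22.2% (10.1 to 39.2) against 8.26%. Within the Eomes progenitor-like class at 2000 UMIs, nuclei with an Eomes UMI held Neurod6 in 35.7% (18.6 to 55.9) and the others in 65.2% (52.4 to 76.5). For Neurod2 the shares there were 7.14% (0.877 to 23.5) and 30.3% (19.6 to 42.8). At full depth the same shares lay closer, at 57.4% and 62.9% for Neurod6 and at 24.1% and 37.1% for Neurod2. Neurog1 was found with Neurog2 in 8 of its 13 radial glia-like nuclei at full depth, 61.5% (31.6 to 86.1), against 19.5% of the others, and too few remained after thinning to compare.

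Within a single class the joint detection of Neurod2 and Neurod6 was less clear. Among neuron-like nuclei at 2000 UMIs, Neurod6 was found in 28.9% (15.4 to 45.9) of those with Neurod2 and in 49.6% (40.1 to 59.0) of the others, whereas at full depth the shares were 72.4% and 57.9%. Among Eomes progenitor-like nuclei at 2000 UMIs they were 72.7% (49.8 to 89.3) and 51.4% (39.3 to 63.4). The sign of the difference in neuron-like nuclei thus turned with depth, and no order is read from it.

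**Figure D4:**
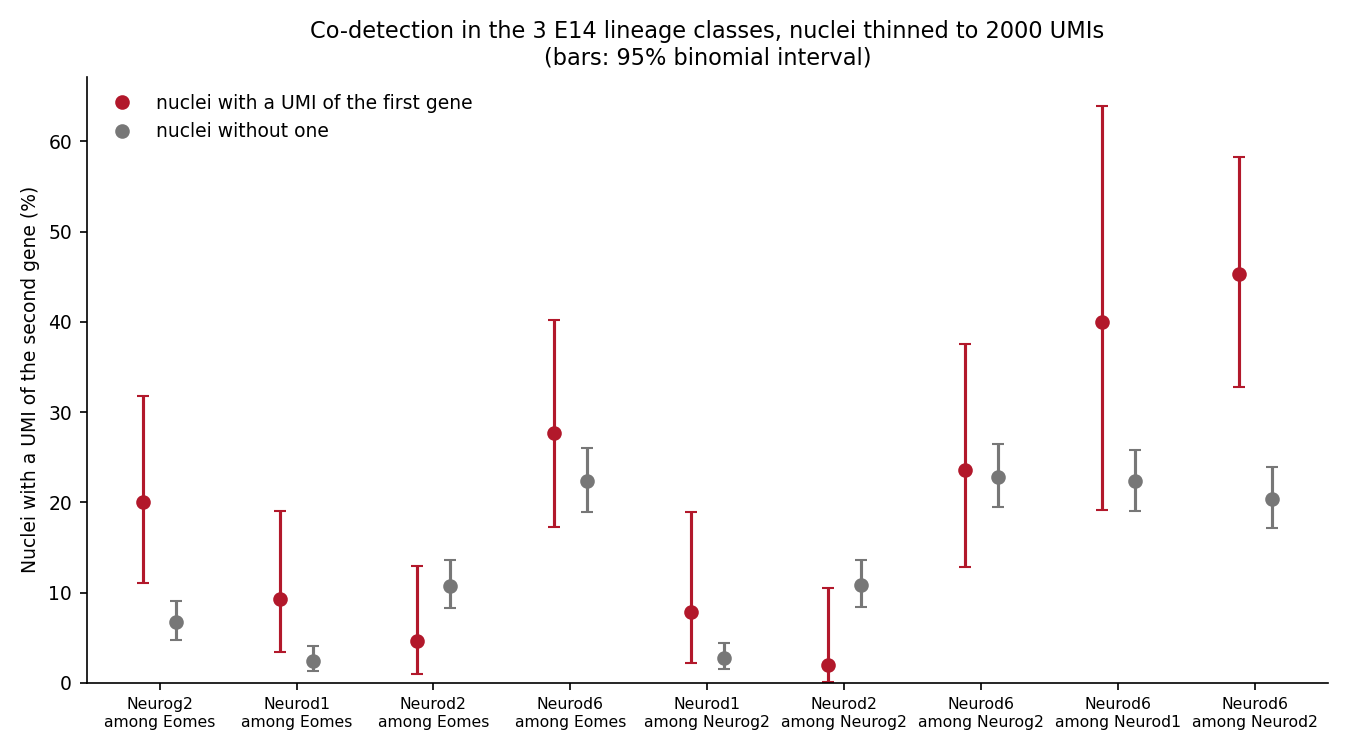
Points give the percent of nuclei (vertical axis) with a UMI of the second-detected gene among nuclei with (red) and without (grey) a UMI of the gene named after "among" (horizontal axis), in the 634 nuclei of the 3 E14 lineage classes thinned to 2000 UMIs. Lines are 95% binomial intervals. Neurod6 among Neurod2 is at 45.3% against 20.4% and Neurog2 among Eomes at 20.0% against 6.68%.

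Among neuron classes outside the reclustered nuclei, Neurog2 was highest in the class that resembles early-born cortical neurons. Cajal-Retzius neuron-like nuclei, marked by Reln and Trp73, had Neurog2 at 38.3 (25.4 to 55.3) CPM from 28 UMIs in 137 nuclei, 16.5-fold (7.34 to 41.96) above the GABAergic neuron-like class. Of those 28 UMIs no nucleus held more than 3. Neurod2 and Neurod6 were at 6.83 and 10.9 there, from 5 and 8 UMIs. Neurod4 was at 4.10 from 3 UMIs, its highest level over the 22 clusters. Eomes also was found in 39 of these nuclei at full depth, of which 8 held Neurog2, and no association is read from this count.

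Sim1 or Otp hypothalamic neuron-like nuclei had both Neurog2 and Neurod1. Neurog2 was at 19.0 (15.0 to 23.7) CPM from 77 UMIs in 646 nuclei, or 16.3 without 1 nucleus that held 12, and 8.21-fold (3.96 to 19.7) above the GABAergic neuron-like class. Neurod1 was at 12.8 (9.58 to 16.8) from 52 UMIs, 7.39-fold (3.17 to 21.1) above it. Neurod2 was at 3.21, a ratio of 1.58 (0.587 to 4.69), and Neurod6 at 6.17, a ratio of 1.25 (0.651 to 2.47). The cortical pair was thus not told apart from the background in this class. Thalamic neuron-like nuclei had Neurog2 at 12.2, 5.27-fold (2.44 to 13.0) above it, while their Neurod1 ratio was 1.71 (0.565 to 5.74).

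Ventral radial glia-like nuclei, the progenitors of GABAergic neurons, had little of any member. Neurog2 was at 3.04 from 9 UMIs in 452 nuclei, and the dorsal level was 18.6-fold (9.59 to 41.4) higher. Neurog1 was 6.23-fold (1.41 to 56.8) higher in dorsal radial glia-like nuclei, from 13 and 2 UMIs. The 4 non-neural classes together had Neurog2 at 8.43, Neurod2 at 7.58 and Neurod6 at 26.0 CPM, above the GABAergic neuron-like levels. In endothelial-like nuclei 75 of 103 Neurod6 UMIs came from 1 nucleus, and without it the level was 12.5 in place of 41.9. Choroid plexus-like nuclei had Neurod6 at 25.7 and Neurog2 at 14.7. The neuron-like Neurog2 level of 8.49 had a ratio of 1.01 (0.391 to 2.19) to this non-neural level and of 3.67 (1.13 to 11.6) to the GABAergic neuron-like level, so it was not told apart from the former. Against the same non-neural level the Neurog2 ratio was 4.54 (2.82 to 7.13) in Cajal-Retzius neuron-like, 2.26 (1.61 to 3.16) in hypothalamic neuron-like and 1.45 (0.961 to 2.16) in thalamic neuron-like nuclei, so the thalamic level was not told apart from it either. The radial glia-like levels of Neurod2 and Neurod6 were 1.75-fold (1.15 to 2.64) and 1.94-fold (1.57 to 2.40) above the non-neural levels. Single nuclei weighed on both ratios. These were the radial glia-like nuclei rich in Neurod2 or Neurod6 described above, and the endothelial-like nucleus with 75 Neurod6 UMIs. The intervals do not cover this, and no ratio without these nuclei is given. The hypothalamic neuron-like Neurod1 level was 3.14-fold (2.00 to 4.98) above the non-neural one.

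Over the 22 E14 clusters, Neurod2 and Neurod6 had the closest patterns of the 15 member pairs, with a Pearson correlation of 0.932 between their log2 levels. Neurog1 and Neurog2 were at 0.760 and Neurod1 and Neurod4 lowest at 0.264. The clusters share 1 library and its free RNA, so these values are descriptions. The genes most like Neurod6 were Zbtb18 at 0.957, Neurod2, Tiam2, Slc17a7 and Adamtsl3 at 0.846. The same other genes, with Neurod6 first, were the most like Neurod2. Those most like Neurod1 were Prdm8 at 0.798, Neurod6, Neurod2, Adamtsl3 and Slc17a7. Lhx2, a gene of cortical progenitors, was the most like Neurog2 at 0.821, followed by Bbx, Gm13584, Mid1 and E130114P18Rik. For Neurog1, with 31 UMIs in all, the list was Vangl2 at 0.893, Kat6b, Fzd1, Tfap2c and G430095P16Rik. For Neurod4, with 33 UMIs, it was E330013P04Rik at 0.822, Otx1, Dmrta2, Shisa8 and Wnt8b.

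The partners, repressors and known targets of these factors were counted between successive classes where they had at least 20 UMIs, leaving out genes that helped to name the classes, such as Eomes, Nhlh1 and Tbr1. From radial glia-like to Eomes progenitor-like nuclei, 5.90% of 12099 genes were at least 2 times higher and 20.5% at least 2 times lower. The median log2 ratio of all genes was -0.22. Of 7 repressors and inhibitors counted, 2 were higher and 4 lower, with a median log2 ratio of -1.27. Hes1, a Notch-driven repressor of Neurog2, was 17.5-fold (5.95 to 85.4) lower, at 120.2 and 6.86 CPM on 371 and 3 UMIs. Id4 was 5.23-fold and Id3 4.68-fold (0.783 to 190.2) lower, the latter on 33 and 1 UMIs, and Hey2 was lower on 51 and 0 UMIs. Id2 was 4.09-fold and Hey1 3.02-fold higher. Of 8 targets, with a median of 0.78, 3 were higher and 0 lower, namely Rnd2, which controls neuron migration, 7.06-fold, Dcx, a microtubule protein of migrating neurons, 5.23-fold and Mfng 3.46-fold. Of the 3 E-protein partners, with a median of 0.26, 0 passed in either direction.

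From Eomes progenitor-like to neuron-like nuclei, 11.4% of 8149 genes were at least 2 times higher and 8.90% at least 2 times lower, with a median log2 ratio of -0.13. All 3 E-proteins were lower here, Tcf12 by 2.36-fold, Tcf4 by 2.10-fold and Tcf3 by 2.02-fold, with a median log2 ratio of -1.07. Of 8 targets, with a median of -1.66, 0 were higher and 5 lower, with Mfng 8.57-fold, Hes6 5.65-fold, Rnd2 3.55-fold and Cbfa2t2 3.21-fold lower. Of 4 genes counted from the repressor list, with a median of -1.16, 0 were higher and 2 lower, Hes6 and Hey1, the latter 2.83-fold. Hes6 is a Hes family member that opposes Hes1, yet it is in both the repressor and the target list. It is counted in each, at both steps. Bhlhe22, another bHLH gene and a factor of postmitotic cortical neurons, was 5.45-fold higher at the first step and 2.31-fold higher at the second. These counts describe short lists and single out none of them.

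In the adult hippocampus, Neurod2, Neurod6 and Neurod1 persisted with 855, 1131 and 176 UMIs. Neurog1 and Neurog2 had 1 UMI each in 15346746, in an astrocyte-like and an unnamed nucleus, and Neurod4 had 0, where the floor of 3 counts stands for 0.195 CPM and the Poisson interval reaches 0.240. The 3 persisting genes differed in the excitatory classes where they were high. Levels in the 2 libraries were not compared by ratio, since tissue, age and library cannot be told apart.

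Neurod6 was high in pyramidal classes and near 0 in granule cells. It was at 225 (209 to 241) CPM in 183 CA1-like nuclei, 258 (222 to 297) in 34 CA3-like nuclei and 79.2 (56.1 to 109) in 29 cortical excitatory neuron-like nuclei. In 427 dentate granule-like nuclei it was at 1.56 (0.713 to 2.96) from 9 UMIs, and the CA1-like level was 144-fold (75.5 to 316) higher. CA3-like and CA1-like levels were not told apart, with a ratio of 1.15 (0.972 to 1.35), while the cortical level was 0.353 (0.248 to 0.488) times that of CA1. A Neurod6 UMI was in 95.1% of CA1-like nuclei at a median of 18740 UMIs, in 1.87% of granule-like nuclei at 11393 and in 9.30% of 43 inhibitory neuron-like nuclei at 11822. Thinned to 2000 UMIs these shares were 33.3%, 0.941% and 2.38%. The 2 CA1-like clusters were at 252 and 211, a ratio of 1.19 (1.03 to 1.38).

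Neurod2 was present in every excitatory hippocampal class and, among the named classes, had its highest summed levels in granule-like and CA3-like nuclei. It was at 83.4 (76.1 to 91.2) CPM in dentate granule-like, 78.0 (58.9 to 101) in CA3-like, 55.5 (48.0 to 63.8) in CA1-like and 47.9 (30.4 to 72.0) in cortical excitatory neuron-like nuclei. The granule-like level was 1.504-fold (1.27 to 1.78) above CA1. CA3 was 1.41-fold (1.03 to 1.90) above CA1, and the cortical class was not told apart from CA1. Thinned to 2000 UMIs, a Neurod2 UMI was in 16.7% (13.3 to 20.6) of granule-like, 8.82% (1.86 to 23.7) of CA3-like and 11.5% (7.25 to 17.0) of CA1-like nuclei. Thinned to 1000 UMIs these shares were 7.98%, 17.6% and 7.10%. The order of the shares thus changed with depth, and none is read from them. The 2 granule-like clusters differed, with 106 (94.8 to 118) in the one of 220 nuclei and 56.4 (47.7 to 66.3) in the one of 207, a ratio of 1.88 (1.54 to 2.29), at median depths of 11846 and 10862 UMIs. Thalamic neuron-like nuclei had 2 UMIs of Neurod2 in 63 nuclei, 1.47 CPM, and the granule-like level was 56.6-fold (15.6 to 469) higher.

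Neurod1, a gene needed for granule cell formation, had the fewest UMIs of the persisting members and, among the named classes, was highest in granule-like nuclei. Its level was 18.7 (15.4 to 22.6) CPM there, 7.36 (4.80 to 10.8) in CA1-like nuclei and 9.74 (3.92 to 20.1) in CA3-like nuclei. The granule-like level was 2.55-fold (1.65 to 4.07) above CA1. The 2 granule-like clusters were at 17.5 and 20.2, a ratio of 0.865 (0.582 to 1.29), so the difference in Neurod2 between them was not matched by Neurod1. Thalamic neuron-like nuclei had Neurod1 at 6.63 (3.03 to 12.6) from 9 UMIs, a level not told apart from that of CA1.

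Glial classes also held some UMIs of the persisting members. Astrocyte-like nuclei had Neurod1 at 10.6, Neurod2 at 20.0 and Neurod6 at 14.1 CPM, from 9, 17 and 12 UMIs, and oligodendrocyte-like nuclei had 1.20, 7.20 and 4.80. Of the 12 Neurod6 UMIs in astrocyte-like nuclei 7 lay in 1 nucleus. The Neurod1 level was not told apart from the astrocyte-like one in CA1-like nuclei, with a ratio of 0.694 (0.315 to 1.68), or in granule-like nuclei, with a ratio of 1.77 (0.897 to 3.97). Against oligodendrocyte-like nuclei the granule-like Neurod1 level was 15.6-fold (2.74 to 622) higher, on 108 and 1 UMIs. Against astrocyte-like nuclei, Neurod2 was 4.17-fold (2.57 to 7.21) higher in granule-like nuclei and Neurod6 15.9-fold (9.05 to 30.9) higher in CA1-like nuclei. The CA1-like level was 6.30-fold (2.65 to 19.6) above inhibitory neuron-like nuclei for Neurod2 and 31.9-fold (12.4 to 117) for Neurod6. Oligodendrocyte precursor-like nuclei had Neurod2 at 35.7 (13.1 to 77.7) on 6 UMIs in 28 nuclei. An unnamed cluster of 205 nuclei with a median of 854 UMIs, with mitochondrial genes among its leading genes, had Neurod1 at 32.6, Neurod2 at 157 and Neurod6 at 232.

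Adult nuclei that held one member often held another at full depth. In CA1-like nuclei 107 of 110 with a Neurod2 UMI also held Neurod6, 97.3% against 91.8% of the others, whereas at 2000 UMIs the shares were 14.3% (3.05 to 36.3) and 35.8%. In granule-like nuclei 70.0% (58.7 to 79.7) of the 80 with Neurod1 held Neurod2, against 53.3% (47.9 to 58.7). At 2000 UMIs the granule-like shares were 20.0% (4.33 to 48.1) and 16.6%, so neither difference could be shown at an equal depth.

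**Figure D5:**
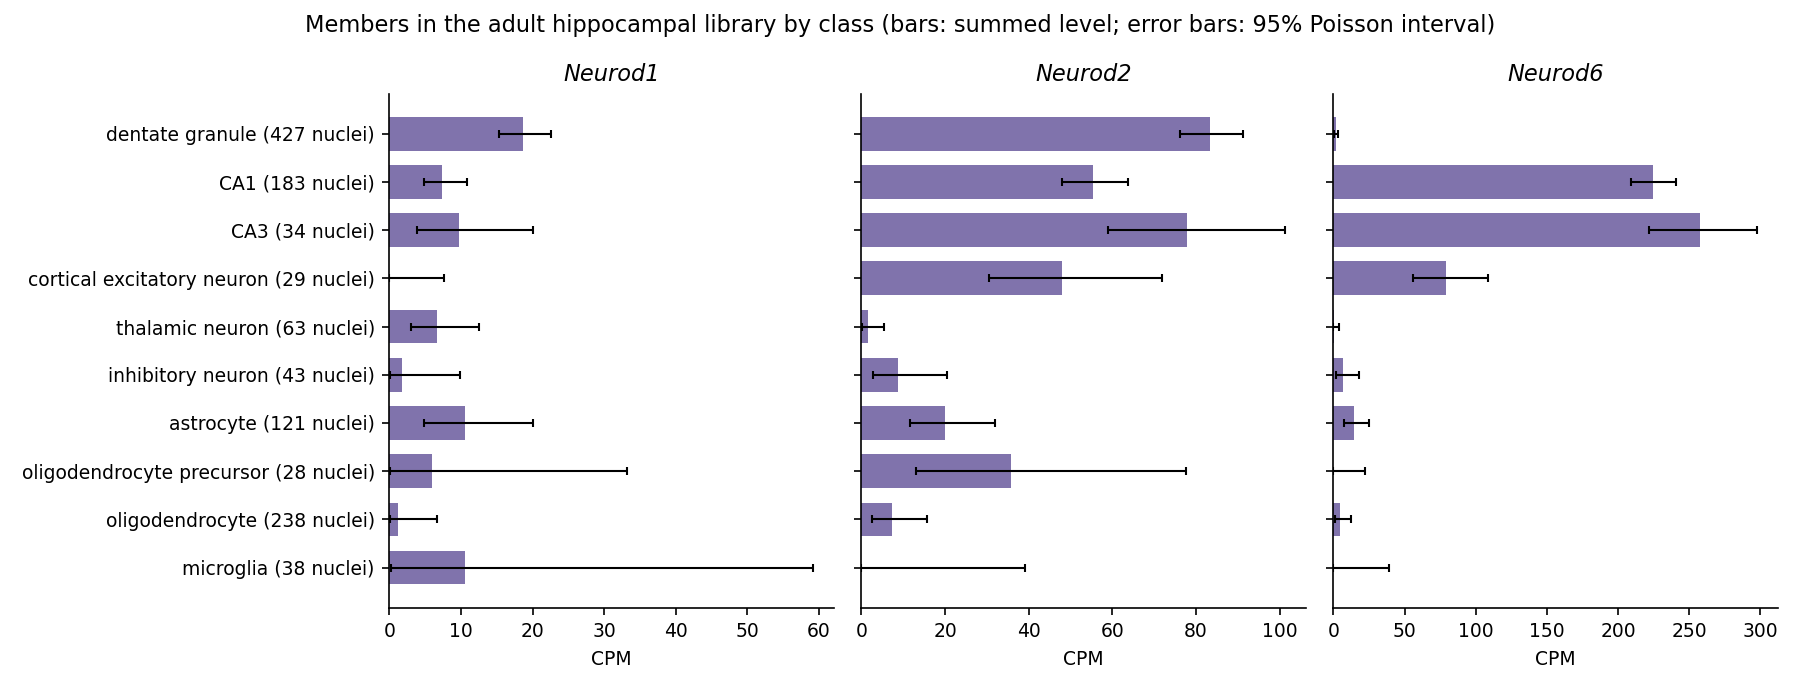
Bars give the level in CPM (horizontal axis, one scale per panel) of Neurod1, Neurod2 and Neurod6 in the named classes of the adult hippocampal library, with the number of nuclei of each class in brackets, and error bars are 95% Poisson intervals. Neurod6 is at 225 in CA1-like and 1.56 in dentate granule-like nuclei, while Neurod2 is at 55.5 and 83.4.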

How the data were processed

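Slide-tags single-nucleus RNA sequencing libraries of the adult mouse hippocampus and the E14 mouse brain were analysed, 1 of each. Raw UMI counts, with reads in introns included, were deposited by the authors for each gene and nucleus from Cell Ranger runs on mm10, and no normalization had been applied. The headers give Cell Ranger 6.1.2 for the adult and 7.0.1 for the E14 library. Background removal by CellBender is named in the methods for the embryo, but the E14 header is that of Cell Ranger, so the matrix was taken as made before that step. The 2 libraries share 1 cell barcode.

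The filters were a minimum of 500 UMIs and a mitochondrial share under 5%, which kept 1609 of 1661 and 9036 of 9037, with medians of 6607 and 4204 UMIs. Clustering followed the methods in Seurat 5.3.0 and R 4.3.3, where each nucleus was normalized to 10000 counts before a log transform. The first 30 components of 2000 variable genes were used at Louvain resolution 0.8. The 6 members were left out of the variable genes. The second clustering used 1000 variable genes, 25 components and resolution 1.0. A cluster was named when at least 4 of 8 markers were in at least 10% of its nuclei and at least 2 times higher than in other nuclei, or 1.5 times in the second clustering, where a lead of 2 markers over the next list was also required. Clusters in which another list had more markers among the 10 leading genes stayed unnamed, and low-UMI clusters needed 6 markers. Unnamed clusters were left out of the class comparisons.

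Intervals for levels are exact Poisson, for shares exact binomial (Clopper-Pearson) and for ratios exact conditional binomial, all at 95% and for counting error only. A sum of 0 was given a floor of 3 counts. Thinning drew 1000 or 2000 UMIs per nucleus without replacement, and shallower nuclei were left out. Pathway calls needed 20 UMIs over both classes and a ratio of 2, and likeness used log2 of CPM plus 1 among genes with at least 200 UMIs. Scrublet in scanpy 1.11.5 (Python 3.11.15) called 7 adult and 0 E14 nuclei, which was taken as a failure of its threshold. The nuclei with the highest scores were marked instead, up to 22 and 653 expected, which with ties gave 27 and 797, and they were kept in the main values.

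The genes named are the 6 members, up to 4 pathway genes per list and direction past the ratio of 2, the 5 genes most like each member, and markers where a class is described. The leading genes given for clusters of the second clustering were chosen after their values were seen. The members and lists were chosen with earlier results of these data known. Alternatives included other filters, resolutions and variable genes, marker gates in place of clusters, thinning, removal of likely doublets and removal of single nuclei. The interval functions were tested on simulated data. Gene positions are from GENCODE vM21 and promoters from RefSeq on GRCm38.p6.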

Additional observations from a re-analysis of the deposited data

How the results depend on the processing

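The 8 ratios between successive lineage classes were recomputed under 13 alternatives. The first ratio is that of Eomes progenitor-like over dorsal radial glia-like nuclei and the second that of cortical excitatory neuron-like over Eomes progenitor-like nuclei. Of these 104 values 75 moved by less than the counting interval, 28 moved further in the same direction or around 1, and 1 turned. With marker gates applied within the reclustered nuclei, the Neurod1 ratio of neurons over Eomes progenitors was 1.06 in place of 0.398. The same gates gave ratios of Eomes progenitors over radial glia of 2.00 for Neurod2 and 4.84 for Neurod6, and of neurons over Eomes progenitors of 1.75 and 1.61. Gates over the whole library gave first ratios of 1.92 for Neurog2, 2.00 for Neurod1, 2.13 for Neurod2 and 3.76 for Neurod6. A minimum of 1000 UMIs gave first ratios of 9.89 for Neurod1 and 10.1 for Neurod6. With 4000 variable genes they were 12.0 for Neurod1 and 9.84 for Neurod6, and the second Neurod2 ratio was 1.63. The first Neurod6 ratio was 10.9 at resolution 1.6, 11.4 with members among the variable genes, 11.6 at a second resolution of 1.5 and 9.27 without the nucleus with the most UMIs. The first Neurod2 ratio was 17.5 with members among the variable genes and 17.4 at the second resolution of 1.5. Other results were also recomputed under alternatives. Among the pathway results 28 stayed the same and 12 moved. Among the results on genes most like each member 11 stayed the same and 7 moved.

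Thinning to 1000 UMIs gave first ratios of 33.3 for Neurod2 and 9.35 for Neurod6, and second ratios of 0.313 for Neurog2 and 1.35 for Neurod6. The adult CA1-like Neurod2 level was then 71.0. Counting cluster 9 as Eomes progenitor-like gave first ratios of 0.658 for Neurog2 and 5.19 for Neurod6 and a second Neurod6 ratio of 1.33. Against radial glia-like nuclei without a cell cycle UMI, the first ratios were 27.0 for Neurod2, on 1 radial glia-like UMI, and 40.03 for Neurod6, on 2. At 2000 in place of 1000 UMIs, Neurog2 was found in 9.56% of radial glia-like and Neurod6 in 44.4% of neuron-like nuclei. The causes were not tested, apart from the changed depth and nuclei that these alternatives bring by construction.

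In the 13 alternatives that gave values the first ratios of Neurod1, Neurod2 and Neurod6 stayed above 1, between 2.00 and 40.03, and the second ratio of Neurog2 stayed between 0.117 and 0.313. With likely doublets removed before clustering, or at a second resolution of 0.5, no Eomes progenitor-like cluster was named and the ratios could not be given. The gates within the reclustered nuclei, the second resolutions of 1.5 and 0.5, removal of doublets before clustering, cluster 9, cycling nuclei and single-nucleus alternatives were chosen after seeing the data. No paired analysis was possible because each tissue had 1 library. Neurog1 and Neurod4 were limited by depth, with 31 and 33 UMIs in the E14 library.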
